A study of Mus musculus with 18 samples.

Results

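The VL30 group of mouse endogenous retroviruses was followed here through the 5 repeat subfamilies whose names begin with MMVL30 or RLTR6, out of 1365 subfamilies in each deposited table. Members were chosen by name only, and no measured value entered the rule, though earlier results of these data were known. They are MMVL30-int and RLTR6-int, which are internal parts of proviruses, and the long terminal repeats (LTRs) RLTR6_Mm, RLTR6B_Mm and RLTR6C_Mm. All are of the class ERV1, and all 5 carry an adjusted p in each of the 3 tables. The study sequenced polyadenylated RNA from 18 libraries in 6 groups of 3. The groups were untreated cells and cells given the HSP90 inhibitor NVP-AUY922 for 24 h: embryonic stem cells (ESCs) in 2i medium at 100 nM, macrophages grown from bone marrow with M-CSF at 500 nM, and neuronal progenitor cells (NPCs) in N2B27 medium with EGF and FGF at 50 nM. ESCs and NPCs had the strain background 129S1/CASTEiJ and macrophages BALBC/C57BL6, so dose and, in macrophages, strain go with the cell type and cannot be told apart from it. Nothing in the labels says that replicates were separate cultures or animals, so a p speaks for these libraries only. The tables hold repeats and no genes, so neither the cell types nor the action of the inhibitor could be checked against marker genes.

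VL30 elements are virus-like retrotransposons of the mouse genome that lack working retroviral genes. Their RNA is transcribed from the LTR, runs through the internal part and is packaged into the particles of murine leukaemia viruses, which supply the missing proteins. VL30 LTRs are known for responding to growth factors, stress and other signals, and VL30 RNA is known to bind the RNA-binding protein SFPQ. MMVL30-int is the VL30 internal part and RLTR6_Mm an LTR of these elements. RLTR6-int carries the name of the internal part that goes with RLTR6 LTRs, and RLTR6B_Mm and RLTR6C_Mm are variant LTRs. Each row sums all genomic copies, many of them lone LTRs without an internal part.

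The values come from 1 authors' deposited table per cell type: a base mean, which is the mean over 6 libraries of reads divided by a size factor, and a log2 fold change with its standard error (SE) between the 3 treated and 3 untreated libraries. These tables carry no value of a single library, so library depth is unknown here. The group that served as numerator is not stated. A row is therefore said to lie on the positive or the negative side, with no claim as to which side is that of treated cells. A row was called at an adjusted p under 0.05.

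The level of the VL30 internal part differed widely between cell types. The base mean of MMVL30-int in the authors' deposited table was 2002 normalised reads in ESCs, 27230 in macrophages and 6162 in NPCs. These levels put the row at rank 230, 17 and 61 of all 1365 rows, in that order. Each table was normalised by itself, so levels are compared as a share of the summed base means of all repeats in a table. MMVL30-int held 0.0521% in ESCs, 1.37% in macrophages and 0.296% in NPCs. Its share was thus 26.3-fold higher in macrophages than in ESCs, and of 743 rows whose base mean reached 50 in both tables only 1 had a larger ratio. Between ESCs and NPCs, which share a strain background, its share was 5.67-fold higher in NPCs, with 12 of 763 rows above it. The median row moved by 1.35-fold and 1.40-fold in these comparisons. Each base mean pools treated and untreated libraries, at a dose that differs by cell type, so these are not levels of untreated cells. Levels have no error in the tables and were not tested.

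The LTR rows did not all follow the internal part. RLTR6_Mm held 0.0487% of the summed base means in ESCs, 0.172% in macrophages and 0.0386% in NPCs. It was 3.54-fold higher in macrophages than in ESCs and lower in NPCs than in ESCs, at 0.792 of the ESC share. RLTR6C_Mm went with MMVL30-int. Its base means in the authors' deposited table were 183, 1355 and 635 normalised reads in ESCs, macrophages and NPCs, and its share was 14.3-fold higher in macrophages and 6.39-fold higher in NPCs than in ESCs. RLTR6B_Mm went the other way, with base means of 1425, 400.2 and 477 normalised reads there and a share 1.84-fold higher in ESCs than in macrophages. RLTR6-int was also highest in ESCs, with base means of 5093, 891 and 2079 normalised reads in the authors' deposited table. Its share was 2.96-fold higher in ESCs than in macrophages, where 693 of 743 rows had a larger macrophage-to-ESC ratio. These base means average the treated and untreated groups. The denominator and numerator groups stood at about 5846 and 4340 normalised reads in ESCs and 1258 and 523 in macrophages. Which of them is the treated group is not stated.

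**Figure D1:**
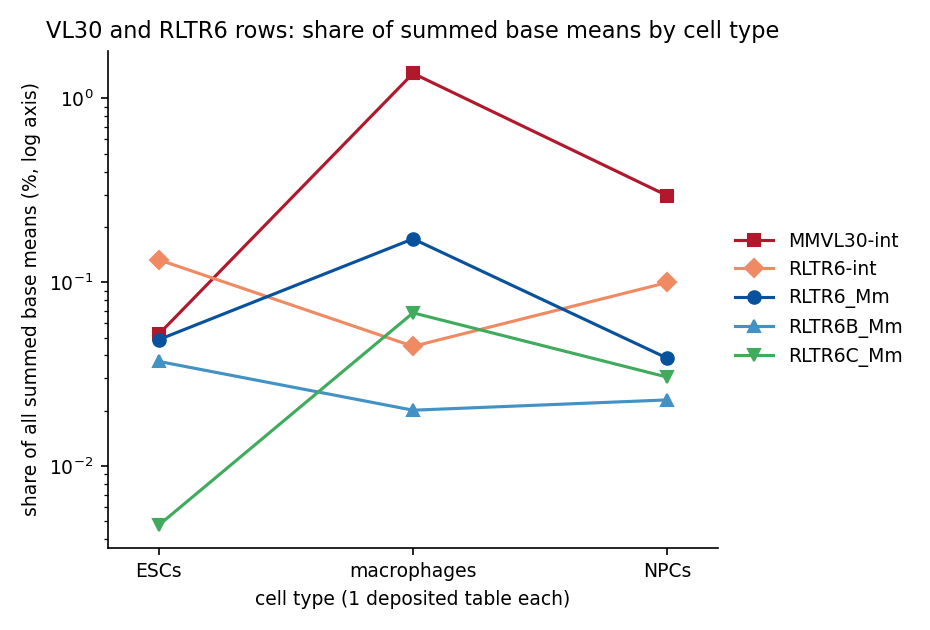
Share of each VL30 or RLTR6 row in the summed base means of all repeat rows (percent, log axis) in the 3 deposited tables. Treated and untreated libraries are pooled, and lines only join the points of a row. MMVL30-int stands at 0.0521% in ESCs and 1.37% in macrophages, while RLTR6-int and RLTR6B_Mm are highest in ESCs.

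The makeup of the group, over treated and untreated libraries together, therefore differed by cell type. Of the summed base means of the 5 rows, MMVL30-int made up 18.9% in ESCs, 81.8% in macrophages and 60.7% in NPCs. RLTR6-int made up 48.2%, 2.67% and 20.5%, in the same order. A ratio of 2 rows within a table is free of the size factors, and the lengths of the elements cancel when such ratios are set against each other. The ratio of the base means of MMVL30-int and RLTR6_Mm was 1.07 in ESCs, against 7.95 for macrophages and 7.66 for NPCs. Macrophages and NPCs thus had nearly the same ratio of VL30 internal part to LTR, and in ESCs it was 7.16-fold lower than in NPCs. The ratio of RLTR6-int to RLTR6_Mm set the cell types apart in another order: it was 2.72 in ESCs and 2.58 in NPCs, against 0.26 in macrophages. RLTR6C_Mm stood at 0.128 of the base mean of RLTR6B_Mm in ESCs, at 3.39 times it in macrophages and at 1.33 times it in NPCs. The assignment of reads that match several copies is not stated, so an LTR and the internal part beside it can share reads.

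Of the internal parts, RLTR6-int had its largest contrast of treated and untreated cells in macrophages and MMVL30-int in ESCs. RLTR6-int lay at -1.27 ± 0.08 there in the authors' deposited table (adjusted p = 2.13e-51). This is a 2.41-fold difference (95% interval 2.15 to 2.69), or about 1258 normalised reads in the denominator group and 523 in the numerator group. Only 30 of the 1255 rows tested in macrophages had a larger absolute log2 fold change. In ESCs RLTR6-int lay on the same side at -0.43 ± 0.07 in the authors' deposited table (adjusted p = 6.13e-09). The ESC difference is 1.35-fold (95% interval 1.23 to 1.48), or about 5846 against 4340 normalised reads. In NPCs its value was 0.11 ± 0.21 and did not pass (adjusted p = 0.865, the authors' deposited table). The NPC interval, from -0.31 to 0.52, does not reach the macrophage value in either orientation.

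MMVL30-int, the most abundant member in macrophages and NPCs, showed small values throughout. In ESCs it lay at 0.28 ± 0.08 in the authors' deposited table (adjusted p = 0.00207). This is a 1.21-fold difference (95% interval 1.09 to 1.34), or about 2195 against 1810 normalised reads, and 386 of 1132 tested rows had a larger absolute value. The authors' deposited table gives -0.16 ± 0.12 for macrophages (adjusted p = 0.356) and 0.13 ± 0.20 for NPCs (adjusted p = 0.797). Neither passed, and the intervals leave room for differences of at most 1.32-fold in macrophages and 1.43-fold in NPCs. The macrophage groups had about 28778 and 25682 normalised reads, far more than any other member.

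Among the LTRs, a different row was called in each of macrophages and NPCs and none in ESCs. RLTR6_Mm lay at -0.50 ± 0.12 in macrophages in the authors' deposited table (1.42-fold, 95% interval 1.20 to 1.66, adjusted p = 2.32e-04), or about 4013 against 2835 normalised reads. Its values in ESCs and NPCs, -0.10 ± 0.09 and 0.16 ± 0.20, did not pass (adjusted p = 0.466 and 0.74, the authors' deposited table). RLTR6B_Mm lay at 0.58 ± 0.16 in NPCs in the authors' deposited table (1.49-fold, 95% interval 1.20 to 1.86, adjusted p = 0.00544), or about 572 against 383 normalised reads. Its macrophage value of 0.20 ± 0.09 passed before adjustment only (p = 0.0283, adjusted p = 0.0933, the authors' deposited table), and its ESC value was -0.09 ± 0.09 (adjusted p = 0.529). RLTR6C_Mm passed in no cell type, with ESC, macrophage and NPC values of -0.26 ± 0.15, 0.04 ± 0.12 and -0.15 ± 0.27 (adjusted p = 0.263, 0.845 and 0.844, the authors' deposited table).

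**Figure D2:**
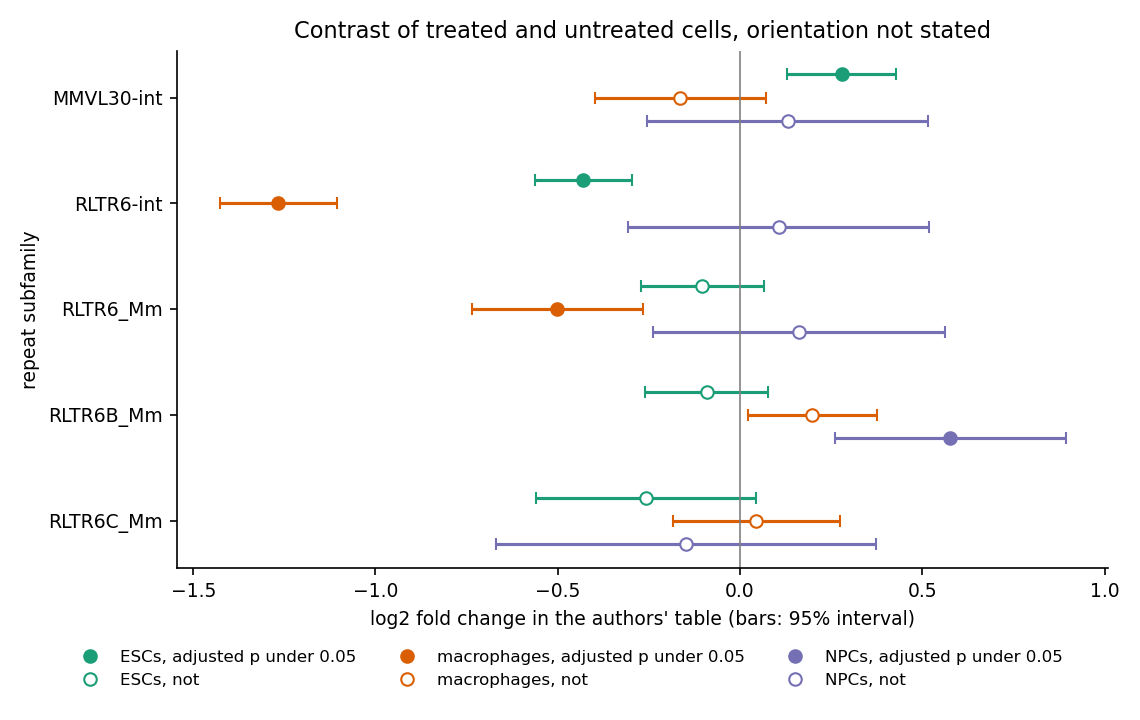
Log2 fold change of each row in the 3 deposited tables, with 95% intervals (1.96 SE) and filled points where the adjusted p is under 0.05; the numerator of the contrast is not stated. RLTR6-int in macrophages, at -1.27, stands apart from all other values of the group, which lie between -0.50 and 0.58.

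Counted together, 2 of the 5 rows were called in ESCs (1 positive, 1 negative), 2 in macrophages (both negative) and 1 in NPCs (positive). Over all tested rows the called share was 22.2% for ESCs, 25.8% for macrophages and 11.8% for NPCs, so with 5 rows these counts lie close to the background. At an unadjusted p under 0.05 the counts were 2, 3 and 1. The median log2 fold change of the 5 rows was -0.10, -0.16 and 0.13, against 0.0019, -0.0129 and 0.0009 over all tested rows. No row of the group was called in all 3 tables, and RLTR6-int is the member that was called in 2 of them.

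**Figure D3:**
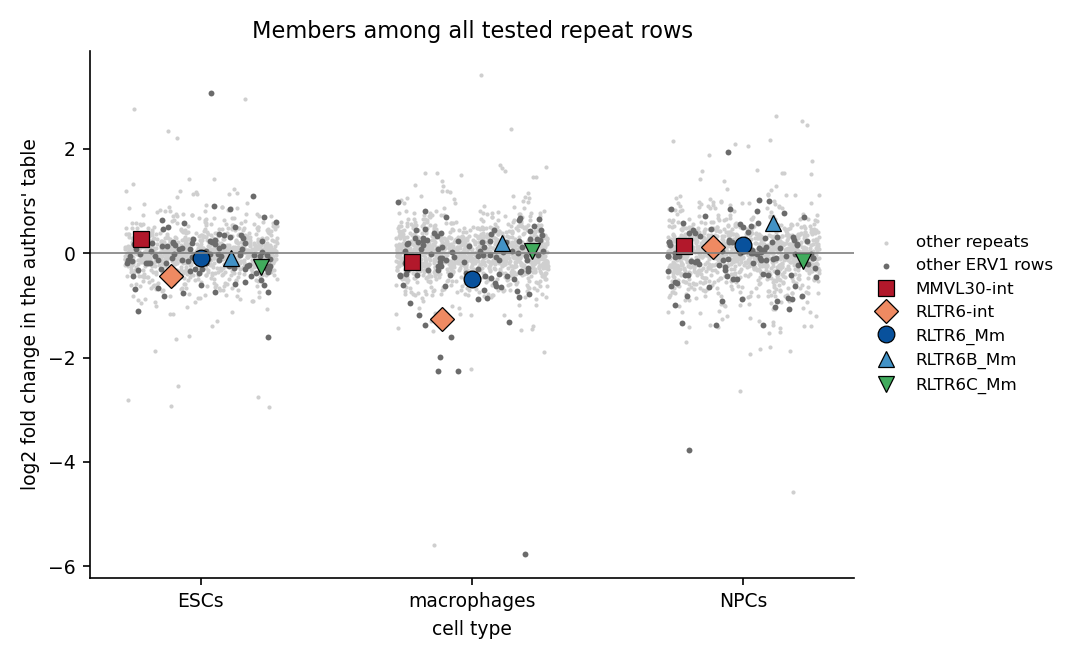
Log2 fold changes of all tested repeat rows in the 3 deposited tables (light grey), of the other ERV1 rows (dark grey) and of the 5 VL30 and RLTR6 rows (coloured symbols); sideways position within a cell type carries no value. Except RLTR6-int in macrophages, the coloured symbols sit inside the dense band of all rows.

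An LTR and an internal part did not always share a side. In ESCs RLTR6_Mm lay at -0.10 and MMVL30-int at 0.28. The upper bound of RLTR6_Mm was 0.07 and the lower bound of MMVL30-int 0.13, though the interval of RLTR6_Mm also took in 0. In macrophages RLTR6-int lay 1.10 below MMVL30-int on the log2 scale, and their 95% intervals did not overlap: the upper bound of RLTR6-int was -1.11 and the lower bound of MMVL30-int -0.40. RLTR6_Mm stood between them and its interval overlapped only that of MMVL30-int. In ESCs the internal parts lay on opposite sides, 0.71 apart, with the upper bound of RLTR6-int at -0.30 and the lower bound of MMVL30-int at 0.13. In NPCs MMVL30-int, RLTR6-int and RLTR6_Mm lay within 0.06 of each other. RLTR6_Mm and RLTR6B_Mm, both LTRs, differed by 0.70 in macrophages, where the upper bound of RLTR6_Mm was -0.27 and the lower bound of RLTR6B_Mm 0.02. These rows come from the same libraries and their errors may be correlated, so the differences within a table are a description and were not tested.

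Each of the 5 members had its largest SE in NPCs. SE values ranged from 0.07 to 0.15 for ESCs, 0.08 to 0.12 for macrophages and 0.16 to 0.27 for NPCs. Taken at face value for 3 libraries per group, the SE of MMVL30-int gives a spread between libraries of about 6.45% for ESCs. The figure is 10.2% for macrophages and 16.6% for NPCs. No value of a single library was at hand to check these figures. In macrophages MMVL30-int, RLTR6_Mm and RLTR6C_Mm were less precise than most rows of like abundance: 80.0%, 88.7% and 89.0% of the rows within 2-fold of their base means had a smaller SE. RLTR6-int and RLTR6B_Mm, at 45.2% and 27.5%, were not. In NPCs RLTR6C_Mm was the least precise member, with a smaller SE in 87.4% of rows within 2-fold of its base mean. RLTR6B_Mm was the most precise, with 24.1%.

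**Figure D4:**
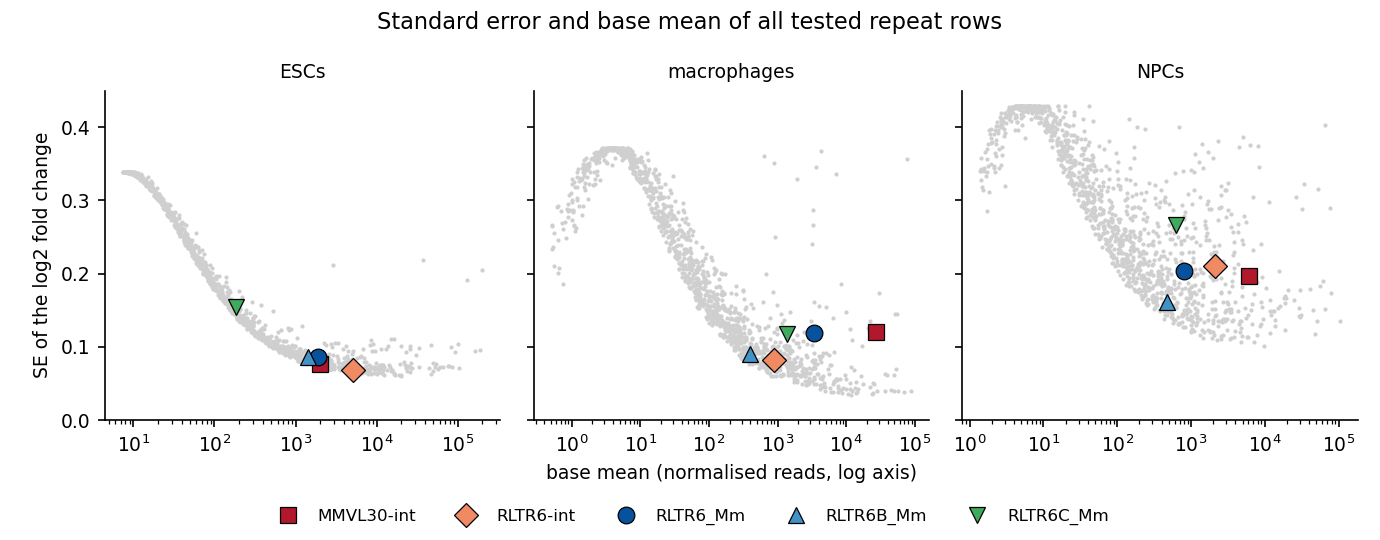
Standard error of the log2 fold change against the base mean (log axis) for all tested rows (grey) and the 5 VL30 and RLTR6 rows (coloured symbols). MMVL30-int in macrophages, at an SE of 0.12 and a base mean of 27230, lies above most rows of like abundance, and all 5 SE values in NPCs exceed 0.15.

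Whether the contrast differs between cell types was tested for each row as the difference of its log2 fold changes, over all rows tested in both tables (two-sided normal p, Benjamini-Hochberg). Because the tables need not be oriented alike, each difference was computed with both tables as deposited and again with the sign of the second table turned. Between ESCs and macrophages 3 of the 5 rows were called as deposited and 2 with a table turned, against 23.7% and 27.9% of all 1124 rows. The rows RLTR6-int and RLTR6_Mm were called in both orientations, as were 11.8% of all rows. For RLTR6-int the difference was 0.84 ± 0.11 as deposited (adjusted p = 1.99e-13) and -1.70 ± 0.11 turned (adjusted p = 9.31e-55), so its macrophage value was the larger in size whichever way the tables are read. For RLTR6_Mm the values were 0.40 ± 0.15 (adjusted p = 0.0321) and -0.60 ± 0.15 (adjusted p = 3.29e-04). MMVL30-int differed by 0.44 ± 0.14 as deposited (adjusted p = 0.0106), and by 0.11 ± 0.14 turned (adjusted p = 0.594), so that its call rests on the orientation.

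Against NPCs, RLTR6-int and RLTR6B_Mm carried the calls that held in both orientations. Between macrophages and NPCs 2 of the 5 rows were called as deposited and 2 turned, against 12.4% and 19.9% of all 1222 rows, and 1 in both, against 6.06%. That row was RLTR6-int, with differences of -1.37 ± 0.23 (adjusted p = 8.91e-08) and -1.16 ± 0.23 (adjusted p = 6.57e-06). RLTR6_Mm was called only as deposited, at -0.66 ± 0.24 (adjusted p = 0.0426; turned, -0.34 ± 0.24, adjusted p = 0.369), and RLTR6B_Mm only turned, at 0.78 ± 0.18 (adjusted p = 3.62e-04; as deposited, -0.38 ± 0.18, adjusted p = 0.199). Between ESCs and NPCs 1 of the 5 rows was called in each orientation, against 12.6% and 16.2% of all 1126 rows, and 6.04% of rows were called in both. This was RLTR6B_Mm, the LTR called in NPCs, at -0.67 ± 0.18 (adjusted p = 0.00366) and 0.49 ± 0.18 (adjusted p = 0.049). RLTR6-int in this pair differed by -0.54 ± 0.22 as deposited and did not pass (adjusted p = 0.0947; turned, 0.367). RLTR6C_Mm was called in no pair, and its intervals as deposited ran from -0.68 to 0.08, from -0.71 to 0.49 and from -0.38 to 0.76.

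**Figure D5:**
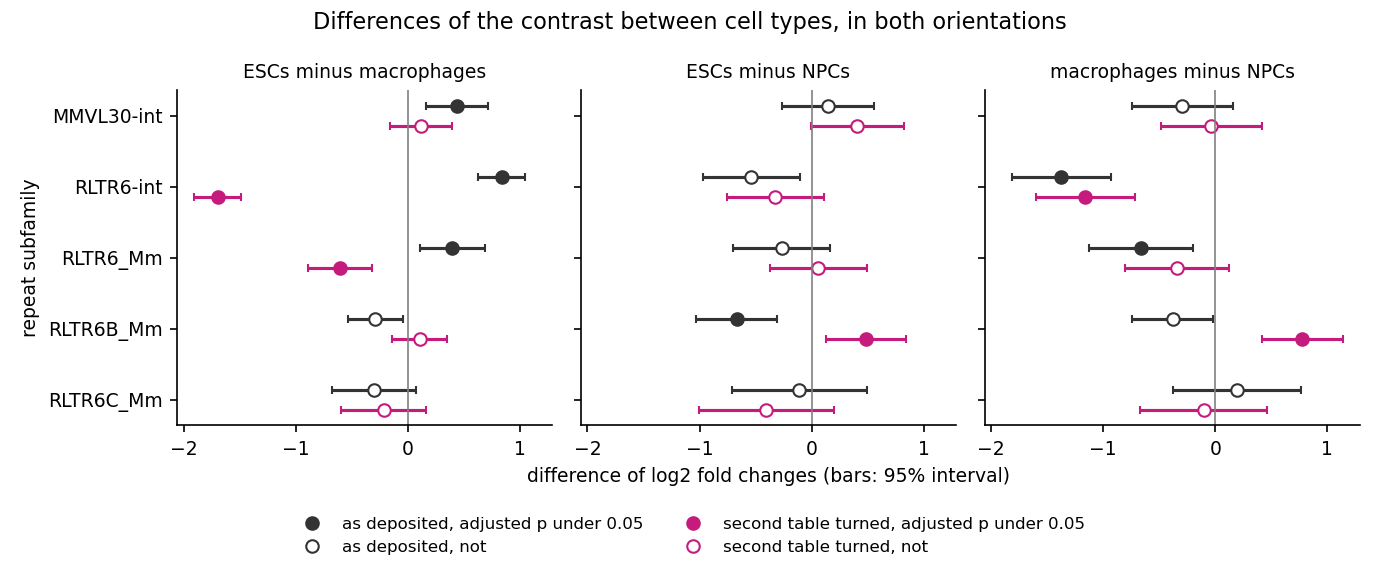
Differences of the log2 fold changes between cell types for the 5 rows, with 95% intervals, as deposited (black) and with the sign of the second table turned (pink); filled points have an adjusted p under 0.05. RLTR6-int in macrophages differs from both other cell types in both orientations, and RLTR6C_Mm differs in none.

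VL30 belongs to the ERV1 class, which also holds the murine leukaemia viruses whose particles carry VL30 RNA. Of the other ERV1 rows tested, 32 of 105 were called in ESCs (11 positive, 21 negative), 35 of 109 in macrophages (9 positive, 26 negative) and 16 of 109 in NPCs (6 positive, 10 negative). These are shares of 30.5%, 32.1% and 14.7%, against 22.2%, 25.8% and 11.8% of all tested rows. They include the kin rows listed next, so the ERV1 shares and the kin shares are not separate results. Shares of the ERV1 rows outside the kin list were not computed. A list of kin rows (names of murine leukaemia virus-like, MuRRS, LTRIS, GLN and RLTR1 elements) had 16 of 37 tested rows called in ESCs (4 positive, 12 negative), 19 of 36 in macrophages (6 positive, 13 negative) and 9 of 37 in NPCs (3 positive, 6 negative). The called shares were 43.2%, 52.8% and 24.3%, again beside 22.2%, 25.8% and 11.8% of all tested rows, and the medians of the list were -0.10, -0.17 and -0.16. The prefixes of this list also took in RLTR14, RLTR41, RLTR47 and RLTR48 rows. Without them, a choice made after the values were seen, the called shares were 42.3% of 26 rows in ESCs, 60% of 25 in macrophages and 23.1% of 26 in NPCs.

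The kin of smallest adjusted p in macrophages lay on the same side as RLTR6-int and RLTR6_Mm and farther out. MuLV-int, an internal part of murine leukaemia virus, had a base mean of 12002 normalised reads and lay at -2.00 ± 0.11 in the authors' deposited table. RLTR4_MM-int and RLTR4_Mm, also of this virus group, both lay at -2.26 there, with SE 0.13 and 0.15. MMVL30-int, with a base mean of 27230 next to the 27268 of RLTR4_MM-int, lay at -0.16 ± 0.12 in the same authors' deposited table. In ESCs the kin rows of smallest adjusted p were LTRIS_Mus at 0.58 ± 0.09, MuRRS-int at 0.69 ± 0.11 and LTRIS3 at -0.74 ± 0.12 (the authors' deposited table). In NPCs they were RLTR1D2_MM at -1.06 ± 0.18, MMERGLN-int at -1.35 ± 0.25 and LTRIS4 at 0.9999 ± 0.2602 (the authors' deposited table).

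In the pattern over the 3 cell types, no member had another member as its nearest row. Likeness was measured as the Euclidean distance between the log2 fold changes of 2 rows in the 3 tables, over 716 rows whose base mean reached 50 in each. The row nearest to MMVL30-int was RLTR27, an ERVK element, at a distance of 0.05, then the DNA transposon Charlie7 at 0.05. Its nearest fellow member, RLTR6_Mm, came at place 313 with a distance of 0.51. RLTR6_Mm had RMER13B at 0.12 and MERV1_I-int at 0.14 as its nearest rows. RLTR6-int had few rows near it: RLTR9A3 at 0.28, ORR1A1-int at 0.34 and, at place 19, RLTR6_Mm at 0.83. RLTR6B_Mm was nearest to RLTR40 at 0.03 and RLTR42-int at 0.09, both ERVK, and RLTR6C_Mm to ERVL-E-int at 0.05 and L1MdV_I at 0.06. Distances rest on 3 values per row, take the tables as deposited and ignore the SE. For rows near 0, the nearest row and the place are therefore uncertain. No other family of rows was measured in this way. With 5 members among 716 rows, the lack of a fellow member as nearest row is not evidence that members behave unalike.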

How the data were processed

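The 3 deposited tables hold the authors' comparison of 3 treated with 3 untreated libraries per cell type over 1365 repeat rows. The submitters' processing notes name, without their roles, DESeq2, featureCounts, Bowtie2, TopHat2 (2.0.13), Trim Galore, deepTools and the build mm10. Per the labels' protocols a stranded mRNA kit and paired-end poly(A) sequencing were used. Per the file headers each table is a DESeq2 result. Its base mean is a signal in normalised reads that the authors computed. Fold changes and their SE are log2 values of the authors, and the Wald statistic is a score of the authors. Each p-value, raw or adjusted, is as deposited. Within a relative tolerance of 1e-06 the score equalled fold change over SE, and the adjusted p a Benjamini-Hochberg adjustment, in all 1132, 1255 and 1249 rows tested.

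As fixed for such tables, the test of each contrast across all repeat rows is the one the authors ran with DESeq2, with no count model, SD or n of this work. Whether the authors shrank fold changes is not stated. At base means under 1 the largest absolute values were 0.25, 0.42 and 0.37. In ESCs, rows of low base mean such as LTR53-int and MER92A had the same SE of 0.339. Fold changes thus appear shrunken towards 0. Rows of larger SE, such as the members in NPCs, may lie too near 0. The 95% intervals and the differences between cell types carry this limit too. Computed here with Python 3.11.15, pandas 2.3.3 and scipy 1.17.1 were 95% intervals, shares, differences between cell types, group means and the spread between libraries. Differences were checked on simulated rows with known differences, drawn with the deposited SE. That tests the code and cannot show whether those SE are right. Group means came from the base mean and the fold. The spread was taken as the SE times the natural log of 2 and the square root of 1.5. Group means and the spread are approximate. The naming rule was: all 5 members, up to 3 kin rows per table and the 2 likest rows per member. Members and lists were chosen with earlier results of these data known. Alternatives were other sets of rows for the adjustment, Bonferroni, centring, larger SE and the turned sign. Sequences of these repeats were not used here.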

Additional observations from a re-analysis of the deposited data

Results flagged for a closer look

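For 4 members the contrast differed between cell types, by the test of the difference itself with both tables as deposited. Between ESCs and macrophages these were MMVL30-int at 0.44, RLTR6_Mm at 0.40 and RLTR6-int at 0.84 (ESC minus macrophage, log2 scale). Between ESCs and NPCs it was RLTR6B_Mm at -0.67. Between macrophages and NPCs they were RLTR6_Mm at -0.66 and RLTR6-int at -1.37. Of these 6 differences, that of MMVL30-int and that of RLTR6_Mm between macrophages and NPCs were not called when the sign of a table was turned. Dose and cell type cannot be told apart in any of them. As deposited, 23.7% of all rows were called between ESCs and macrophages, 12.6% between ESCs and NPCs and 12.4% between macrophages and NPCs. The share of all rows called in any of the pairs was not computed, so the count of members has no background.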

How the results depend on the processing

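Of the 5 members, 2 were called for ESCs, 2 for macrophages and 1 for NPCs, against 22.2%, 25.8% and 11.8% of all tested rows. These counts were 1 for ESCs and 0 for NPCs both under Bonferroni and with every SE 1.5 times as large, where MMVL30-int in ESCs and RLTR6B_Mm in NPCs were no longer called. With the larger SE, between cell types 1 member was called for ESCs against macrophages (3 as deposited, 2 with a table turned), 0 for ESCs against NPCs (1 as deposited) and 1 for macrophages against NPCs (2 as deposited). As deposited, 23.7%, 12.6% and 12.4% of all rows were called in these pairs. Shares of all rows under Bonferroni or with the larger SE were not computed, so the lower counts are no result about the members. RLTR6-int and RLTR6_Mm in macrophages and RLTR6-int in ESCs were called under all 6 alternatives. With the sign of the second table turned, differences called in at least 1 orientation changed sign for RLTR6_Mm and RLTR6-int between ESCs and macrophages (-0.60 and -1.70) and for RLTR6B_Mm between ESCs and NPCs and between macrophages and NPCs (0.49 and 0.78), by the construction of that alternative. Differences called in neither orientation also changed sign for RLTR6B_Mm between ESCs and macrophages (-0.29 to 0.11), RLTR6_Mm between ESCs and NPCs (-0.27 to 0.06) and RLTR6C_Mm between macrophages and NPCs (0.19 to -0.10). Adjustment over other sets of rows and centring changed no call of a member. No paired analysis was possible because the tables hold no values per library, and leaving out a replicate was not run for the same reason. Precision limits NPCs most.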
